A study of Mus musculus with 8 samples.

Results

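The lysosome is the acid compartment in which cells break down proteins, lipids and glycans, and autophagy is the route by which a cell wraps parts of itself in a membrane and delivers them there. The genes described here are 38 named genes of both systems, a list of symbols drawn up with earlier results of these data known: 8 cathepsins, 10 other hydrolases and their cofactors, 6 genes of the lysosomal membrane and of cholesterol export, 3 subunits of the proton pump, 9 genes of the autophagy machinery, the transcription factor Tfeb and the cargo receptor Sqstm1. All 38 were among the 19938 genes with a probe set of their own on the arrays, and all 38 were bright enough to be among the 13205 genes tested.

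The cells were mouse bone marrow stromal cells, the plastic-adherent precursors of bone, cartilage and marrow fat, flushed from the femurs and tibiae of C57BL/6 mice aged 6 to 8 weeks. The scaffold under them was Skelite, a calcium phosphate ceramic, and RNA from 8 cultures was measured with 1 array each. Flight cultures were in automated units, either in microgravity or on a 1g centrifuge in the same incubator, and ground-based cultures were in hand-operated units (ground) or in culture dishes (laboratory). Each of these 4 settings was measured in osteoinductive medium, which pushes stromal cells to become bone-forming cells, and in growth medium. Flight and automated handling go together in this design and cannot be told apart. No medium and setting has a second array, and nothing in the labels says that arrays came from separate animals, so p-values reflect only how these 8 arrays spread, and that spread may be technical.

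Values are log2 intensities, and a difference of 1 on this scale is a doubling. Differences were tested with limma over all 13205 genes, with Benjamini-Hochberg adjustment and a threshold of 0.05, and genes past it are described as having risen or fallen. Intensities of different probe sets are not on a common scale, so genes are compared by their differences only. Over all probe sets, array medians on the intensity scale lay between 191.3 and 196.4 on flight arrays and between 180.9 and 183.6 on ground-based arrays. Over the tested genes, log2 medians lay between 8.44 and 8.58 on flight arrays and between 8.53 and 8.59 on ground-based arrays. The spread of intensities thus differed along the flight comparison, and not by a common shift. Of 12 stromal markers 11 were above the brightness limit of 7.14 as a mean over the arrays, and Lepr was below it. Among the 11, Col1a1, Col1a2 and Vim stood above 12 on all arrays. Thy1 at 7.35 to 7.88 and Nt5e at 7.13 to 7.80 lay near the limit. Markers of other tissues also differed: 12 of 12 neuronal, 8 of 8 endothelial and 10 of 12 skeletal muscle markers were higher on every flight array than on any ground-based array. By the same rule 6 of 10 lung epithelium, 3 of 16 macrophage and 1 of 8 osteoclast markers were higher, beside 11.8% of all tested genes. Of the macrophage and osteoclast markers, listed because those cells are rich in lysosomes, 6 of 16 and 3 of 8 were below the limit. Among the rest, the macrophage markers Cd68 and Laptm5 stood at 7.77 to 8.44 and at 7.90 to 8.76. Others lay near the limit, such as Cd14 at 6.95 to 7.51 and C1qc at 6.70 to 7.39.

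Lysosomes digest with hydrolases that work only in acid, which the vacuolar ATPase provides by pumping protons inwards. Cathepsins are proteases among these hydrolases, the membrane proteins Lamp1 and Lamp2 line the compartment, and Npc1 and Npc2 move cholesterol out of it. In autophagy, Ulk1 and Becn1 act early, Wipi1 marks the growing membrane, and Atg5, Atg7 and Atg12 attach the Map1lc3 and Gabarap proteins to it. Tfeb switches many of these genes on by binding an E-box in their promoters. In bone, cathepsin K is best known as the collagen-cutting protease of osteoclasts.

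The E-box was searched as CACGTG, and in its longer form as TCACGTG or its reverse complement CACGTGA, in the RefSeq promoter windows of assembly GRCm38.p6, which run from 250 bases before to 50 bases after each start. Windows were given for 30 of the 38 genes. CACGTG lay in 13 of these 30 genes (43.3%), against 2187 of all 27025 genes with a window (8.09%) and 11.3% of the tested genes with a window. The longer form, which is contained in the same matches, lay in 10 of the 30 (33.3%). It lay in 4.29% of all genes with a window and in 6.58% of the tested genes with a window. A match describes the letters in the window and shows no binding. 4 windows are shown, 2 of genes that rose in osteoinductive medium (Lamp1 and Gla) and 2 of genes that fell in flight (Mcoln1 and Glb1). They run 5′ to 3′ along the gene, and capitals mark CACGTG with any flanking letter of the longer form.
Lamp1, chr8:13158911-13159210, + strand: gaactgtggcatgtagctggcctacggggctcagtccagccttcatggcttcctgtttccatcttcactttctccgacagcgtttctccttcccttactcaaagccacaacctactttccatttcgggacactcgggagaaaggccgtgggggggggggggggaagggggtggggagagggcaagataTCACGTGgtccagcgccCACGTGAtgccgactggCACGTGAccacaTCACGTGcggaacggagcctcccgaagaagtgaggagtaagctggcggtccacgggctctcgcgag
Gla, chrX:134600956-134601255, - strand: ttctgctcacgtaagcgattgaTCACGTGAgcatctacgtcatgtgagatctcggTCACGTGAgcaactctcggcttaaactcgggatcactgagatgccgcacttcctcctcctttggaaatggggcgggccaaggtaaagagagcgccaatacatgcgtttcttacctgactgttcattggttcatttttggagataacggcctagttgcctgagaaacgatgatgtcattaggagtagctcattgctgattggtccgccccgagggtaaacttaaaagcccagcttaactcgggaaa
Mcoln1, chr8:3500269-3500568, + strand: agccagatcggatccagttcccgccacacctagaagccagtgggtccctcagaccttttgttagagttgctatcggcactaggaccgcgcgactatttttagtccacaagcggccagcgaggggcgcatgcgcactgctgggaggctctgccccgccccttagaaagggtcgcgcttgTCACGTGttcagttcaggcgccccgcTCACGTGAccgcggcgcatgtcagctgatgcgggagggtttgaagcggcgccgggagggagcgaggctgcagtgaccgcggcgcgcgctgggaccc
Glb1, chr9:114400828-114401127, + strand: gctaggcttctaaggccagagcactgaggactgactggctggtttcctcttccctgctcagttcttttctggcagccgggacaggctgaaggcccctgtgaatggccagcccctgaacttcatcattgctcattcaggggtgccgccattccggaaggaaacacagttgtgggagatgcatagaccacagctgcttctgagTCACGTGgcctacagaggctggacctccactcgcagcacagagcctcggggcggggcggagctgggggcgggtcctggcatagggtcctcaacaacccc
Lamp1 held 4 copies, beginning 61, 45, 28 and 15 bases before the start. Gla held 2 copies at 227 and 194 bases, Mcoln1 2 copies at 71 and 45 bases, and Glb1 1 copy at 48 bases.

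**Figure D1:**
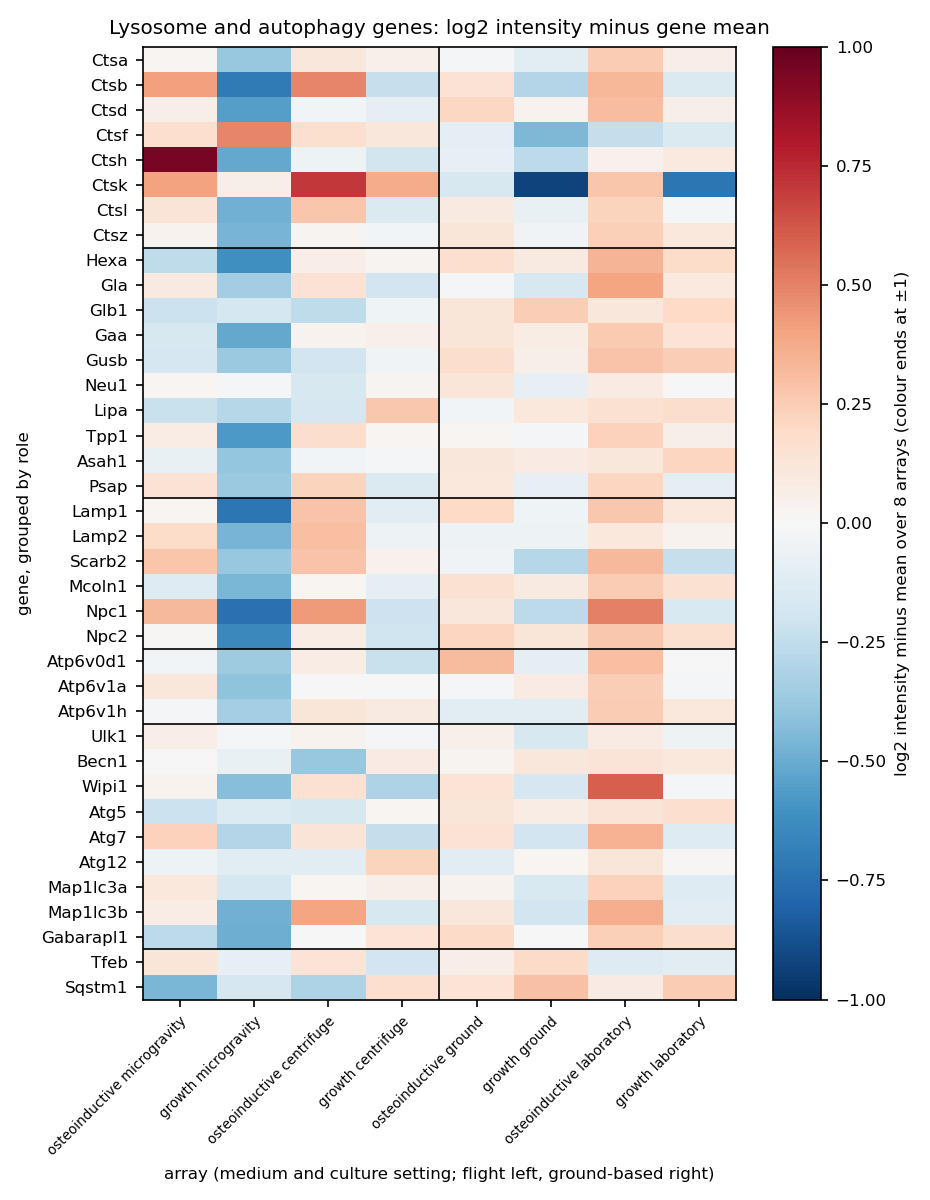
Each row is a gene and each column an array, with flight arrays left of the line and ground-based arrays right of it. Colour is the log2 intensity minus the gene's mean over the 8 arrays, and the growth microgravity column is the lowest of the 8 for 28 of the 38 genes.

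The first comparison asked how the genes differed between osteoinductive and growth medium. Of the 38 genes 12 rose in osteoinductive medium and 0 fell (limma, adjusted over all tested genes), while 6.42% of all tested genes rose and 8.13% fell. Among the 1771 tested genes with a mean log2 of at least 10, the shares were 10.3% and 11.4%. That bound was chosen after the values were seen, and 8 of the 21 lysosome and autophagy genes above it rose. At an unadjusted p under 0.05 there were 20 of the 38 (52.6%), against 27.9% of tested genes, and Sqstm1 was the lower 1 among them. The genes that rose came from every role except the Tfeb and Sqstm1 group: 3 cathepsins, 2 other hydrolases or cofactors, 3 membrane genes, 1 pump subunit and 3 autophagy genes. The median log2 difference over the 38 genes was 0.19, beside -0.02 over all tested genes. In 21 of the 38 the osteoinductive array was the higher in all 4 settings (55.3%), against 15.8% of tested genes, and it was the lower in all 4 for 2, against 20.3%. All 4 osteoinductive arrays lay above all 4 growth arrays for 8 of the 38, against 6.16% of tested genes, and below them for 0, against 3.57%. RNA was taken from whole cultures, in which fewer cells of a type and less RNA per cell cannot be told apart.

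Among the cathepsins, Ctsb, a broad cysteine protease of lysosomes, stood at 12.30 (microgravity), 12.38 (centrifuge), 12.03 (ground) and 12.22 (laboratory) in osteoinductive medium, against 11.19, 11.66, 11.60 and 11.75 in growth medium in the same order. The media did not overlap, and Ctsb rose by 0.68 (SE 0.11, adjusted p = 0.00158), a 1.61-fold difference. Ctsk stood at 8.27 (microgravity), 8.58 (centrifuge), 7.71 (ground) and 8.14 (laboratory) in osteoinductive medium, against 7.92, 8.24, 6.94 and 7.15 in growth medium in the same order. It was higher in osteoinductive medium in each setting, although the ranges of the media overlapped, and rose by 0.61 (SE 0.11, adjusted p = 0.00346). Its values of 6.94 and 7.15 lay near the brightness limit of 7.14, and the stricter filter removed Ctsk. Ctsl, another broad cysteine protease, rose by 0.36 (SE 0.09, adjusted p = 0.0224). The other 5 cathepsins did not pass, with differences between -0.01 for Ctsf and 0.43 for Ctsh.

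Of the other hydrolases and cofactors, Psap and Gla rose. Psap encodes the precursor of the saposins, which help to degrade sphingolipids, and rose by 0.35 (SE 0.09, adjusted p = 0.0179). Gla, the alpha-galactosidase that is deficient in Fabry disease, stood at 9.87 (microgravity), 9.93 (centrifuge), 9.76 (ground) and 10.18 (laboratory) in osteoinductive medium, against 9.44, 9.59, 9.62 and 9.88 in growth medium in the same order. It was higher in osteoinductive medium in each setting and rose by 0.30 (SE 0.08, adjusted p = 0.0312). The other 8 genes of this role did not pass, with differences between -0.13 for Lipa and 0.25 for Tpp1.

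The membrane and cholesterol export genes all lay above 0, and 3 of 6 rose. Npc1 stood at 10.38 (microgravity), 10.48 (centrifuge), 10.17 (ground) and 10.56 (laboratory) in osteoinductive medium, against 9.31, 9.85, 9.80 and 9.90 in growth medium in the same order. The media did not overlap, and the rise of 0.68 (SE 0.11, adjusted p = 0.00122) was the largest of the 38 genes in this comparison. Scarb2, the membrane receptor that carries glucocerebrosidase to lysosomes, stood at 10.35 (microgravity), 10.35 (centrifuge), 10.04 (ground) and 10.40 (laboratory) in osteoinductive medium, against 9.70, 10.11, 9.78 and 9.85 in growth medium in the same order. Only the osteoinductive ground array lay below a growth array, that of the centrifuge, and Scarb2 rose by 0.43 (SE 0.09, adjusted p = 0.00989). Lamp1 stood at 12.21 (microgravity), 12.47 (centrifuge), 12.39 (ground) and 12.46 (laboratory) in osteoinductive medium, against 11.47, 12.08, 12.15 and 12.30 in growth medium in the same order. It was higher in osteoinductive medium in each setting and rose by 0.38 (SE 0.10, adjusted p = 0.0240). Npc2, the soluble partner of Npc1, differed by 0.28 and Lamp2 by 0.27, and neither passed (adjusted p = 0.0863 and 0.120).

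The pump subunit Atp6v0d1 rose by 0.33 (SE 0.08, adjusted p = 0.0161), and Atp6v1a and Atp6v1h did not pass, with differences of 0.17 and 0.12. In the autophagy machinery Map1lc3b, which encodes the LC3B protein on autophagosome membranes, stood at 10.56 (microgravity), 10.88 (centrifuge), 10.60 (ground) and 10.84 (laboratory) in osteoinductive medium, against 10.00, 10.32, 10.29 and 10.37 in growth medium in the same order. The media did not overlap, and Map1lc3b rose by 0.47 (SE 0.08, adjusted p = 0.00288). Its other probe set was also higher in osteoinductive medium in each setting, with values of 10.24 to 10.53 against 9.69 to 10.05 in growth medium.

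Wipi1 stood at 8.31 (microgravity), 8.43 (centrifuge), 8.41 (ground) and 8.87 (laboratory) in osteoinductive medium, against 7.84, 7.97, 8.11 and 8.26 in growth medium in the same order, and rose by 0.46 (SE 0.09, adjusted p = 0.00366). Atg7, the enzyme that activates the ubiquitin-like proteins of autophagy, stood at 9.33 (microgravity), 9.23 (centrifuge), 9.25 (ground) and 9.45 (laboratory) in osteoinductive medium, against 8.81, 8.86, 8.90 and 8.97 in growth medium in the same order. The media did not overlap for either gene, and Atg7 rose by 0.43 (SE 0.08, adjusted p = 0.00453). Tfeb stood at 7.57 (microgravity), 7.59 (centrifuge), 7.52 (ground) and 7.33 (laboratory) in osteoinductive medium, against 7.37, 7.27, 7.65 and 7.34 in growth medium in the same order. The media overlapped, and the difference of 0.10 did not pass, with an interval of -0.11 to 0.30 (adjusted p = 0.576).

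Sqstm1, which encodes the receptor p62 that brings ubiquitin-tagged cargo to autophagosomes and is itself degraded with it, ran the other way. It stood at 12.32 (microgravity), 12.47 (centrifuge), 12.92 (ground) and 12.86 (laboratory) in osteoinductive medium, against 12.61, 12.95, 13.08 and 13.03 in growth medium in the same order. It was lower in osteoinductive medium in each setting, but the difference of -0.27 (SE 0.09) missed the threshold (adjusted p = 0.0554). It passed as lower with quantile normalization, with the stricter filter, with 32 added before log2 and with a trend and robust variance model. With no filter, with the mean over probe sets and with flight or not in place of the settings, Sqstm1 did not pass. Nor did it pass when any single array was left out.

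Media were compared within settings, so leaving out either array of a setting removed that setting and gave the same fit, which makes 4 distinct fits. In all 4 of them 7 of the 12 rises passed: Npc1, Ctsb, Ctsk, Map1lc3b, Wipi1, Atg7 and Scarb2. The other 5 did not pass in 2 to 3 of the 4, and their differences stayed between 0.26 and 0.46. In the fit without microgravity 8 of the 38 genes rose, and the median over the 38 was 0.12. Of the 12 stromal markers 2 rose with medium, Pdgfra by 0.80 and Col3a1 by 0.56, and Vcam1 fell by 0.69. Of 16 macrophage markers 0 rose and 3 fell, and their summed intensity was 2498 to 3294 in osteoinductive and 2781 to 2936 in growth medium. Of 8 osteoclast markers 0 rose and Mmp9 fell, with sums of 1330 to 1416 in osteoinductive and 1356 to 1538 in growth medium. Of 12 neuronal markers Stmn2, Rtn1 and Map2 fell, with sums on the flight arrays of 9613 and 8637 in osteoinductive medium against 13000 and 11351 in growth medium. Of 12 muscle markers Myh8 fell, of 10 lung epithelium markers Abca3 rose, and of 8 endothelial markers 0 were called. The part of any of these markers in the differences between media was not tested.

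**Figure D2:**
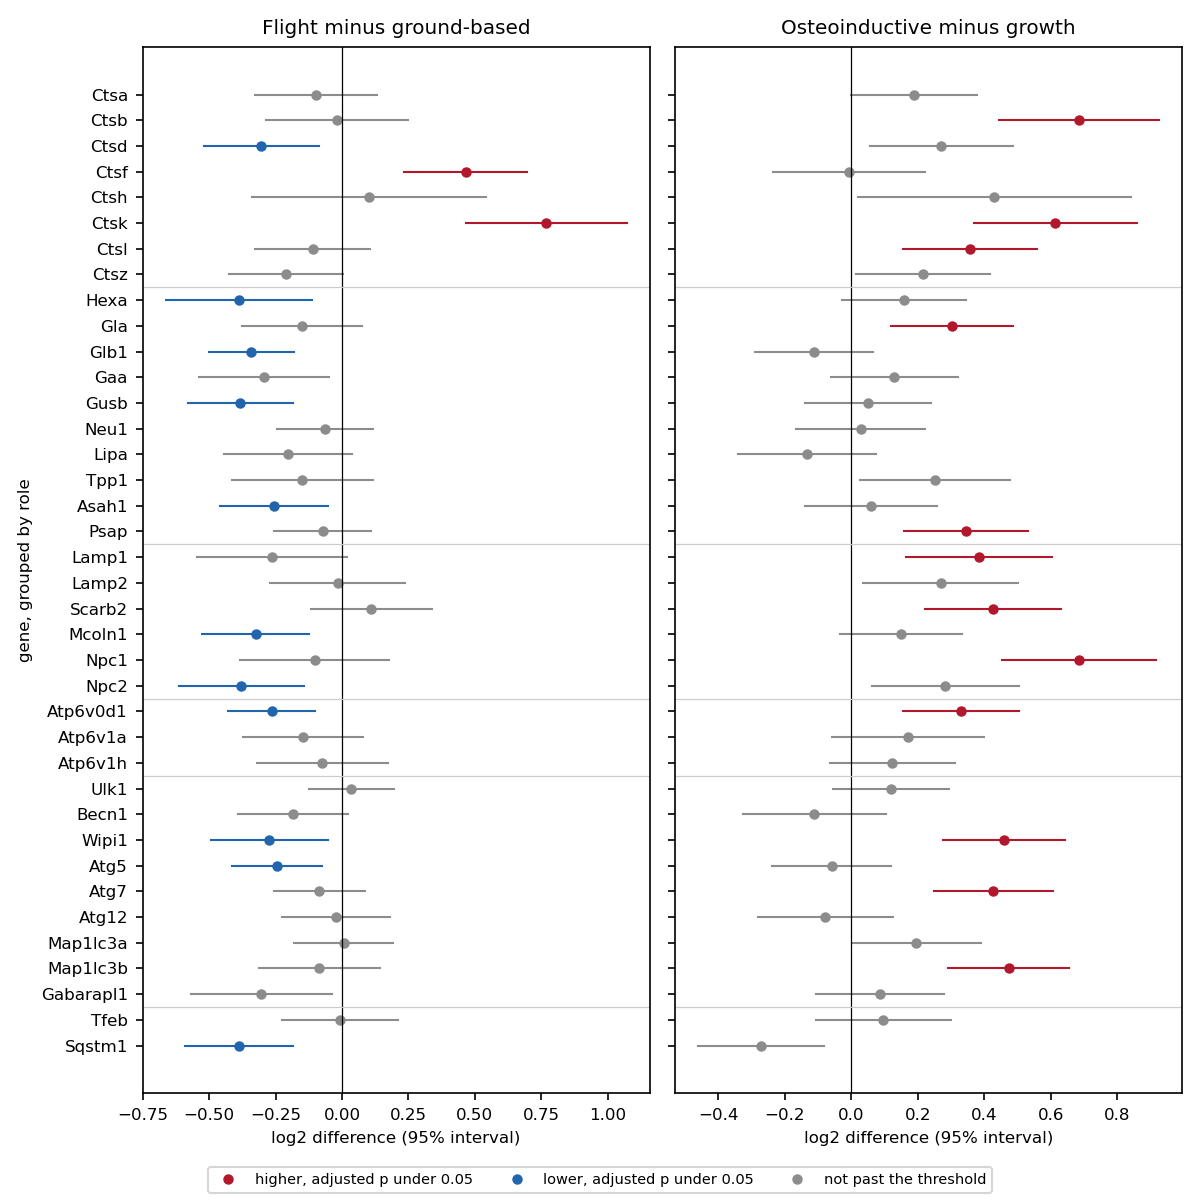
Points are log2 differences of the 38 genes, with flight minus ground-based in the left panel and osteoinductive minus growth in the right panel, and lines are 95% intervals. In the left panel 2 genes are coloured as higher and 11 as lower, and in the right panel 12 are coloured as higher and 0 as lower.

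The second comparison set the 4 flight arrays against the 4 ground-based arrays, with medium as a covariate. Of the 38 genes 2 rose and 11 fell in flight, or 34.2% in all. This share is near the background, since 38.4% of all tested genes were called, with 12.7% higher and 25.7% lower. At an unadjusted p under 0.05 there were 15 of the 38, against 48.8% of tested genes. The median log2 difference was -0.15 over the 38 genes and -0.09 over all tested genes. With quantile normalization 3 of the 38 rose, Ctsk, Ctsf and Scarb2, and 4 fell, Glb1, Gusb, Sqstm1 and Wipi1, and the median over the 38 was -0.03. With no term for medium 6 of the 13 passed, namely Ctsk, Ctsf, Glb1, Gusb, Mcoln1 and Atg5. The 4 flight arrays lay below the 4 ground-based arrays for 8 of the 38 genes, against 16.2% of tested genes, and above them for 1, against 11.8%. The counts say nothing particular to the 38 genes, and the values of single members are given as a description.

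The 2 genes that rose are cathepsins. Ctsk stood at 8.27 (microgravity) and 8.58 (centrifuge) in osteoinductive medium in flight, against 7.71 (ground) and 8.14 (laboratory). In growth medium it stood at 7.92 (microgravity) and 8.24 (centrifuge), against 6.94 (ground) and 7.15 (laboratory). Flight arrays were the higher within each medium, and Ctsk rose by 0.77 (SE 0.14, adjusted p = 0.00130), a 1.70-fold difference and the largest of the 38 genes. Its ground-based values in growth medium lay near the brightness limit of 7.14. With no filter its adjusted p was 0.00179, and the stricter filter removed it. The flight difference was 0.50 in osteoinductive and 1.04 in growth medium, and the test of that difference did not pass (adjusted p = 0.999). Of the osteoclast markers Acp5 rose in flight by 0.73 (adjusted p = 0.000533), while Oscar, Ocstamp, Mmp9 and Itgb3 did not pass and Dcstamp, Calcr and Atp6v0d2 were below the brightness limit. The summed osteoclast markers were 1411 to 1538 on flight arrays and 1330 to 1392 on ground-based arrays, and their part in the rise of Ctsk was not tested.

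Ctsf, a cysteine cathepsin, stood at 7.51 (microgravity) and 7.50 (centrifuge) in osteoinductive medium in flight, against 7.25 (ground) and 7.10 (laboratory). The growth medium values were 7.83 (microgravity) and 7.46 (centrifuge), against 6.90 (ground) and 7.20 (laboratory). Every flight array lay above every ground-based array, and Ctsf rose by 0.46 (SE 0.11, adjusted p = 0.00552). Its ground-based mean of 7.11 was below the brightness limit of 7.14, so it entered the tests through the flight arrays, where it averaged 7.58. With no filter its adjusted p was 0.00757, and the stricter filter removed it. The neuronal markers, summed to 8637 to 13000 on flight arrays against 1212 to 1367 on ground-based arrays, moved the same way. So did the summed muscle and endothelial markers, and the part of these markers was not tested. The aspartic protease Ctsd fell by 0.30 (SE 0.10, adjusted p = 0.0305), but with quantile normalization it differed by -0.15 and did not pass (adjusted p = 0.201). The other 5 cathepsins did not pass, with differences between -0.21 for Ctsz and 0.10 for Ctsh.

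All 10 other hydrolases and cofactors lay below 0 in flight, and 4 fell. Hexa, the alpha subunit of the hexosaminidase that is deficient in Tay-Sachs disease, stood at 11.03 (microgravity) and 11.35 (centrifuge) in osteoinductive medium in flight, against 11.46 (ground) and 11.62 (laboratory). Growth medium cultures stood at 10.67 (microgravity) and 11.31 (centrifuge), against 11.37 (ground) and 11.47 (laboratory). All flight arrays were lower, the microgravity arrays most, and Hexa fell by 0.39 (SE 0.13, adjusted p = 0.0292). With quantile normalization it differed by -0.22 and did not pass (adjusted p = 0.113).

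Gusb, the beta-glucuronidase, stood at 8.26 (microgravity) and 8.24 (centrifuge) in osteoinductive medium in flight, against 8.60 (ground) and 8.71 (laboratory). The values in growth medium were 8.06 (microgravity) and 8.39 (centrifuge), against 8.49 (ground) and 8.67 (laboratory). The groups did not overlap, and Gusb fell by 0.38 (SE 0.09, adjusted p = 0.00645).

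Glb1, the beta-galactosidase of lysosomes, stood at 8.92 (microgravity) and 8.88 (centrifuge) in osteoinductive medium in flight, against 9.25 (ground) and 9.25 (laboratory). In growth medium it stood at 8.95 (microgravity) and 9.09 (centrifuge), against 9.37 (ground) and 9.33 (laboratory). The groups did not overlap, and Glb1 fell by 0.34 (SE 0.07, adjusted p = 0.00385). The ceramidase Asah1 fell by 0.26 (adjusted p = 0.0475), but with quantile normalization it differed by -0.09 and did not pass (adjusted p = 0.361), nor did it with no filter or with a trend and robust variance model. Gaa, the glycogen-degrading glucosidase, missed the threshold with a difference of -0.29 (adjusted p = 0.0570).

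Of the 6 membrane and cholesterol export genes, Npc2 and Mcoln1 fell. Npc2 stood at 10.59 (microgravity) and 10.65 (centrifuge) in osteoinductive medium in flight, against 10.79 (ground) and 10.85 (laboratory). The growth medium values were 9.94 (microgravity) and 10.38 (centrifuge), against 10.70 (ground) and 10.74 (laboratory). The groups did not overlap, and Npc2 fell by 0.38 (SE 0.11, adjusted p = 0.0166). With quantile normalization it differed by -0.22 and did not pass (adjusted p = 0.0839).

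Mcoln1, the calcium channel of the lysosomal membrane, stood at 9.51 (microgravity) and 9.66 (centrifuge) in osteoinductive medium in flight, against 9.79 (ground) and 9.89 (laboratory). Growth medium cultures stood at 9.18 (microgravity) and 9.54 (centrifuge), against 9.73 (ground) and 9.79 (laboratory). The groups did not overlap, and Mcoln1 fell by 0.33 (SE 0.09, adjusted p = 0.0169). With quantile normalization it differed by -0.19 and did not pass (adjusted p = 0.0750). The other 4 genes of this role did not pass, with differences between -0.26 for Lamp1 and 0.11 for Scarb2.

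The pump subunit Atp6v0d1 fell by 0.27 (adjusted p = 0.0167), and in the autophagy machinery Wipi1 fell by 0.27 and Atg5 by 0.25 (adjusted p = 0.0493 and 0.0263). The other 7 autophagy genes did not pass, with differences between -0.30 for Gabarapl1 and 0.04 for Ulk1. With quantile normalization Atp6v0d1 differed by -0.10 and Atg5 by -0.18, and neither passed (adjusted p = 0.264 and 0.0658). Wipi1 did not pass with no filter or with 32 added before log2 (adjusted p = 0.0656 and 0.0531). Ctsk rose both with osteoinductive medium and in flight. Sqstm1 stood at 12.32 (microgravity) and 12.47 (centrifuge) in osteoinductive medium in flight, against 12.92 (ground) and 12.86 (laboratory). The values in growth medium were 12.61 (microgravity) and 12.95 (centrifuge), against 13.08 (ground) and 13.03 (laboratory). Flight arrays were the lower within each medium, and Sqstm1 fell by 0.39 (SE 0.09, adjusted p = 0.00728). Tfeb did not pass, with a difference of -0.01 and an interval of -0.23 to 0.21 (adjusted p = 0.958).

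**Figure D3:**
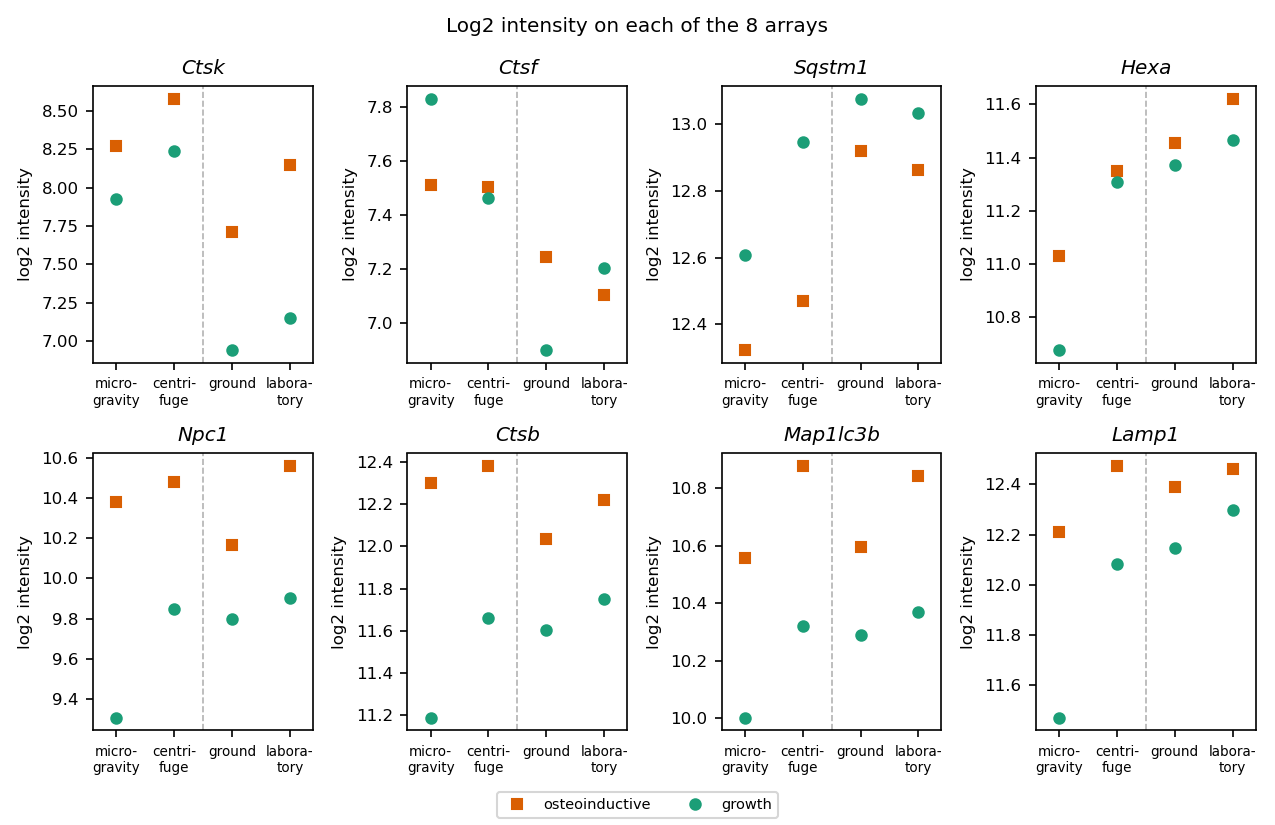
Log2 intensity of 8 of the genes on each array, with osteoinductive medium as squares and growth medium as circles, and flight settings left of the dashed line. Ctsk and Ctsf are higher and Hexa and Sqstm1 lower in flight within each medium, and Npc1, Ctsb, Map1lc3b and Lamp1 are higher in osteoinductive medium in each setting.

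Single arrays moved the flight counts. Of the 13 calls 5 passed in all 8 fits that each left out 1 array, namely Ctsk, Ctsf, Glb1, Gusb and Sqstm1. The other 8 did not pass in 2 to 7 of these fits, and their differences stayed between -0.51 and -0.16. The number called was 5 when the growth laboratory array was left out, 6 when the osteoinductive one was, 7 when it was osteoinductive microgravity and 8 when it was growth ground. Without both microgravity arrays 3 were called, with Ctsk and Ctsf higher and Glb1 lower. The summed stromal markers were 26686 to 31272 on flight arrays and 32351 to 35934 on ground-based arrays, with 5 of 12 fallen and 1 risen. Sums of the muscle markers were 6948 to 9197 on flight arrays against 2667 to 2873 on ground-based arrays, and those of the endothelial markers 1561 to 2813 on flight arrays against 1091 to 1158 on ground-based arrays. Among the 16 macrophage markers 2 fell in flight, Cd68 by 0.24 and Laptm5 by 0.32, and C1qb rose by 0.22. Their summed intensity was 2498 to 3294 on flight arrays and 2541 to 2890 on ground-based arrays. The part of any of these markers in the falls was not tested.

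Whether the flight difference depended on medium was tested as an interaction, and 0 genes of any kind passed in limma (smallest adjusted p 0.647). At an unadjusted p under 0.05 there were 525 genes (3.98%), 2 of them among the 38. Lamp2 stood at 11.94 (microgravity) and 12.06 (centrifuge) in osteoinductive medium in flight, against 11.71 (ground) and 11.86 (laboratory). In growth medium it stood at 11.29 (microgravity) and 11.71 (centrifuge), against 11.70 (ground) and 11.79 (laboratory). The interaction of Lamp2 was 0.46 (SE 0.20), that of Ctsk was -0.54 (SE 0.24), and neither passed (adjusted p = 0.999 for both). A trend and robust variance model also gave 0 calls.

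Microgravity was set against the centrifuge to compare gravity within the flight hardware, and 0 of all tested genes passed in limma (smallest adjusted p 0.187). At an unadjusted p under 0.05 there were 1507 genes (11.4%), and 8 of them were among the 38. The median difference was -0.21 over the 38 genes and -0.05 over all tested genes. Within growth medium 36 of the 38 lay below 0, against 62.6% of tested genes, with a median of -0.34 beside -0.11. Within osteoinductive medium 25 of the 38 lay below 0, against 49.6% of tested genes, with a median of -0.06 beside 0.0023. In both media 24 of the 38 (63.2%) lay below 0, against 30.4% of tested genes. Of tested genes with a mean log2 of at least 10, which include 21 of the 38, the share was 55.9%. Of the dimmer tested genes, which include the other 17, it was 26.5%. The share of the 38 was not split by brightness, so 63.2% has no like set beside it.

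The lowest unadjusted p-values were those of Hexa and Gabarapl1. Hexa differed by -0.32 in osteoinductive and by -0.64 in growth medium, or by -0.48 in the fit (SE 0.12, adjusted p = 0.271). Gabarapl1, a relative of the LC3 proteins, stood at 9.91 in microgravity and 10.17 on the centrifuge in osteoinductive medium, and at 9.69 in microgravity and 10.31 on the centrifuge in growth medium. It differed by -0.44 in the fit (SE 0.13, adjusted p = 0.300) and did not pass.

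The growth microgravity array was the lowest of all 8 for 28 of the 38 genes (73.7%), against 27.1% of tested genes. Bright genes as a whole were low on this array. Of the 1771 tested genes with a mean log2 intensity of at least 10, a bound chosen after the values were seen, 50.7% were lowest there, and 20 of the 21 lysosome and autophagy genes above that bound were. The same bright genes had a median difference of -0.35 between microgravity and centrifuge in growth medium, and of -0.205 between flight and ground-based arrays. At the other end, the osteoinductive laboratory array was the highest of the 8 for 20 of the 38 genes (52.6%), against 18.2% of tested genes. Without the growth microgravity array the median of the 38 genes between microgravity and centrifuge was -0.05, and with quantile normalization it was -0.10.

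**Figure D4:**
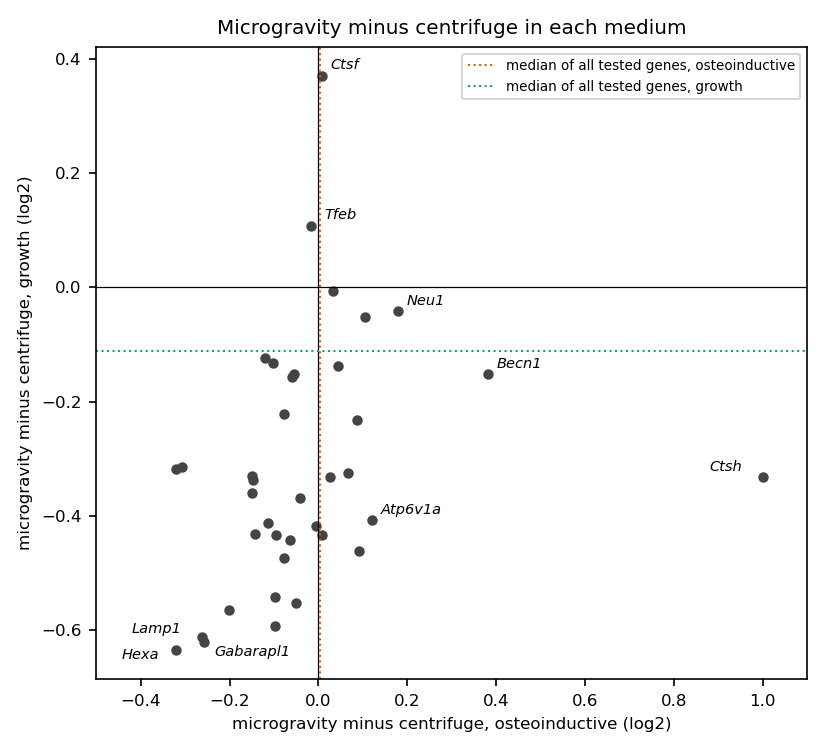
Each point is a gene, placed by its log2 difference between microgravity and centrifuge in osteoinductive medium (horizontal) and in growth medium (vertical), and dotted lines mark the medians of all tested genes. In growth medium 36 of the 38 points lie below 0, and Ctsh stands apart at the right with a difference of 1.00 in osteoinductive medium.

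Microgravity and the centrifuge were each also set against the ground units, and these comparisons share the ground arrays with each other and with the flight comparison. In microgravity 2 of the 38 genes rose and 9 fell, while 28.7% of tested genes were called, 10.6% higher and 18.1% lower. Ctsk rose by 0.77 (SE 0.16, adjusted p = 0.00407) and Ctsf by 0.60 (SE 0.15, adjusted p = 0.0108). Ctsf averaged 7.07 in the ground units, below the brightness limit, against 7.67 in microgravity, and with no filter its adjusted p was 0.0160. Hexa fell by 0.56 (SE 0.12, adjusted p = 0.00530), and Sqstm1, Npc2, Gabarapl1, Gaa, Lamp1, Mcoln1, Gusb and Glb1 fell by 0.38 to 0.53. On the centrifuge Ctsk rose by 1.09 (SE 0.16, adjusted p = 0.000614), and no other gene of the 38 was called. In the ground unit with growth medium Ctsk stood at 6.94, below the brightness limit, and the stricter filter removed it. Of tested genes 10.1% were called on the centrifuge, 6.34% higher and 3.78% lower. Sqstm1 differed by -0.29 and Glb1 by -0.33 there, and neither passed (adjusted p = 0.175 and 0.0944).

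The calls between microgravity and ground changed when single arrays were left out. Without the growth microgravity array 1 gene was called, Ctsh, which was higher by 1.08. Without the growth ground array 2 were called, Ctsk as higher and Sqstm1 as lower, and without the osteoinductive ground array 3 were called, Ctsk and Ctsf as higher and Hexa as lower. With quantile normalization Ctsk and Ctsf rose and Hexa, Sqstm1 and Gusb fell. The rise of Ctsk on the centrifuge passed whichever single array was left out. Becn1 and Sqstm1 passed as lower beside it, making 3 calls, without the growth centrifuge array.

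Ground units were set against culture dishes to compare the hardware without flight. In limma 0 of all tested genes passed (smallest adjusted p 0.441), with 269 genes at an unadjusted p under 0.05 (2.04%), 3 of them among the 38. In both media 28 of the 38 genes lay below 0, against 38.9% of tested genes, and 3 lay above 0, against 18.4%. The median difference was -0.11 over the 38 and -0.04 over all tested genes. The lowest unadjusted p-values were those of Gla, with a difference of -0.34 (SE 0.12), and Wipi1, with -0.30 (SE 0.12), and neither passed. Gla stood at 9.76 on the ground and 10.18 in the laboratory in osteoinductive medium, and at 9.62 on the ground and 9.88 in the laboratory in growth medium.

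Ctsh, an aminopeptidase-type cathepsin that also matures surfactant proteins in lung, was singled out after its values were seen. It stood at 9.73 on the osteoinductive microgravity array and between 8.27 and 8.88 on the other 7. Its flight difference was 0.10 with all arrays and -0.17 without the osteoinductive microgravity array, and it did not pass in either fit. Its difference between media was 0.43 (adjusted p = 0.159) with all arrays and 0.09 without that array. When either laboratory array was left out, the difference between media was 0.59 and passed. Between microgravity and centrifuge the difference was 0.33 and did not pass with all arrays, and it was 1.02 and passed without the growth microgravity array, where microgravity is represented by the osteoinductive array alone.

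Lung epithelium markers were highest on the same array. Their summed intensity there was 14189, against 2339 to 3442 on the other 3 flight arrays and 1351 to 1460 on the ground-based arrays. Sftpc, surfactant protein C, stood at 12.81 on it, against 9.50 to 10.56 on the other flight arrays and 6.61 to 6.78 on ground-based arrays. The club cell gene Scgb1a1, below the brightness limit as a mean over the 8 arrays, stood at 9.61 on it and at 6.85 or less elsewhere. Lyz2, lysozyme of macrophages and of surfactant-producing lung cells, stood at 9.72 on it and between 7.43 and 7.80 elsewhere. Endothelial markers were also highest on this array, with a sum of 2813 against 1561 to 1765 on the other flight arrays, and Pecam1 stood at 8.86 on it and at 7.75 or less elsewhere. The part of lung and endothelial markers in the level of Ctsh was not tested.

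**Figure D5:**
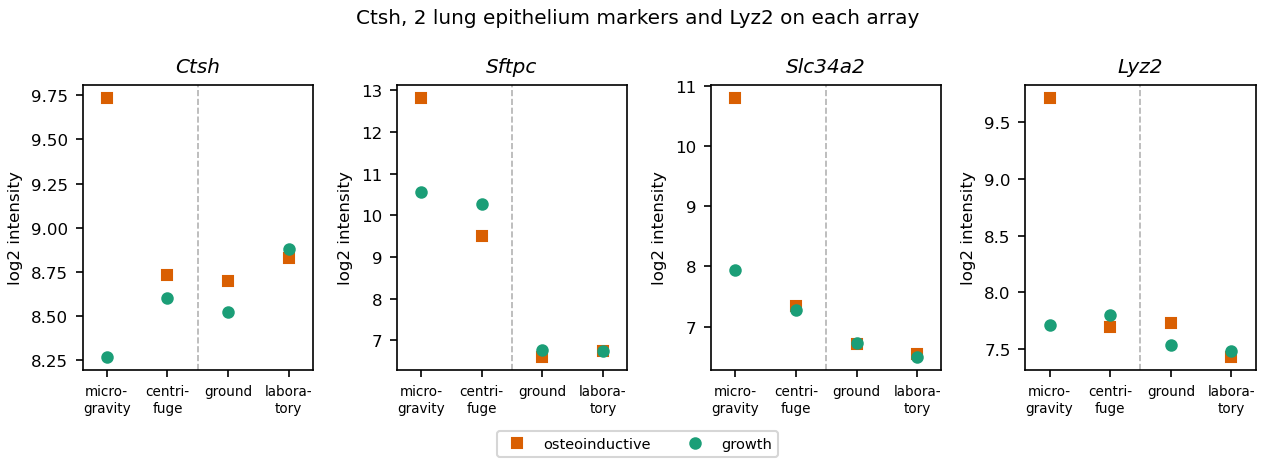
Log2 intensity of Ctsh, the lung epithelium markers Sftpc and Slc34a2 and the lysozyme gene Lyz2 on each array, with osteoinductive medium as squares and growth medium as circles, and flight settings left of the dashed line. All 4 genes are highest on the osteoinductive microgravity array.

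Genes with and without an E-box match were both among those called. Among the 13 genes with CACGTG in a window 5 rose in osteoinductive medium, and among the 17 with a window but no match 5 rose too. In flight 1 gene rose and 5 fell in each of these groups. Median differences in flight were -0.25 with the match and -0.15 without it, and between media they were 0.19 with it and 0.21 without it.

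A wider list of 155 genes of the same systems, of which 137 were tested, was read beside the 38. It was read in the main fits only, so how its calls depend on the processing was not tested. Between media 20 of the 137 rose and 3 fell (14.6% and 2.19%), against 6.42% and 8.13% of all tested genes, and their median was 0.09. Of the 6 groups in that list the pump had the highest share of rises, with 6 of 15 other subunits and accessory proteins higher (40%), led by Atp6v0a1 at 0.53, Atp6ap2 at 0.50 and Atp6v1b2 at 0.43. Among other membrane and sorting genes 4 of 20 rose and 0 fell, led by the ion channel Tpcn1 at 1.25 and the cystine exporter Ctns at 0.62. Of 4 further cathepsins and related proteases the asparagine-cleaving legumain, Lgmn, rose by 0.77. Of 25 other hydrolases and cofactors 4 rose and 0 fell, led by Plbd2 at 0.40 and the acid phosphatase Acp2 at 0.39.

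Of 43 other autophagy genes and receptors 3 rose in osteoinductive medium (6.98%, near the background) and 1 fell. Bnip3, a mitochondrial receptor for autophagy that is also a hypoxia target, rose by 1.12, Gabarap by 0.50 and Atg2a by 0.39, and the protease Atg4c fell by 0.49. Of 30 genes of the TFE factors and of nutrient signalling 2 rose and 2 fell (6.67% each, also near the background). Sesn1 rose by 0.45 and Fnip2 by 0.39, while Rheb, the activator of the growth kinase mTORC1, fell by 0.45 and Sesn2 by 0.42.

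In flight 8 of the 137 wider genes rose and 35 fell (5.84% and 25.5%), beside 12.7% and 25.7% of all tested genes, with a median of -0.15. The share of falls was thus near the background, and these calls were not checked with quantile normalization. The falls included 13 of the 30 genes of the TFE factors and of nutrient signalling (43.3%), led by Fnip2 at -0.45, the Tfeb relative Tfe3 at -0.43 and Sesn2 at -0.40. In the same group Rragd, a GTPase at the lysosome surface, rose by 0.75 and Prkaa2, a catalytic subunit of AMPK, by 0.50. Of 43 other autophagy genes 0 rose and 7 fell (16.3%, less than the background), led by Atg2b at -0.51, Wdr45b at -0.42 and Wipi2 at -0.37. Of 25 other hydrolases and cofactors 8 fell (32%), led by Aga, Arsb and Naglu at -0.57, -0.57 and -0.45, while Gm2a rose by 0.83 and Ids by 0.59. Of 4 further cathepsins and related proteases Ctso fell by 0.36.

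Of the other membrane and sorting genes 3 of 20 fell in flight (15%, less than the background), with Igf2r at -0.45, Tmem192 at -0.40 and Cd63 at -0.28, and the sorting receptor Sort1 rose by 0.82. Of 15 other pump genes 3 rose and 3 fell. Atp6v0e2 rose by 1.34, Atp6v1g2 by 0.47 and Atp6v0a1 by 0.39, while Atp6v1f, Tcirg1 and Atp6v1d fell by 0.24 to 0.37. Tcirg1 encodes the pump subunit best known from osteoclasts, and Atp6v1g2 and Atp6v0a1 are best known from neurons. In flight the neuronal markers moved the same way as these rises, and so did the summed muscle and endothelial markers. Between media Atp6v0a1 rose by 0.53, while the neuronal markers Stmn2, Rtn1 and Map2 fell. The part of these markers was not tested.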

How the data were processed

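The authors deposited linear intensities, 1 per probe set and array, for 8 arrays. RMA and GCRMA both stand in the submitters' processing notes. Which of them made these values, and on which genome build the probes were placed, are not given in the sources used here. Log2 of the deposited intensities was taken with nothing added and with no further normalization. Titles decided the groups. Against them, both centrifuge samples have the gravity type microgravity, and a description puts the osteoinductive centrifuge sample in growth medium, so their comparisons hold only if the titles are right.

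The annotation gave 1 gene for 21789 of 35557 probe sets and several for 1621, and names were checked in RefSeq's table for GRCm38.p6, where 21698 identifiers matched. The brightest probe set by mean log2 stood for a gene. Genes entered the tests when that mean exceeded 7.14, the 40th percentile over probe sets. Tests used lmFit and eBayes of limma 3.58.1 in R 4.3.3, two-sided, with Benjamini-Hochberg adjustment over the tested genes and a threshold of 0.05. Flight was fitted with medium (5 residual degrees of freedom), the interaction with both and their product (4), and all other comparisons with setting and medium (3), so that their interaction served as the error. In the flight fit microgravity and centrifuge, and ground and laboratory, count as repeats although they are different settings. The scripts were tested on simulated arrays.

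The 38 genes, the wider list and the marker lists were chosen with earlier results of these data known. Values on every array are given for Tfeb, Sqstm1, Ctsk and Lamp1, for up to 8 genes past the threshold with the largest differences in the flight and in the medium comparison, for up to 3 in the others, and where none passed for the 2 with the lowest p. From each group of the wider list up to 3 genes in each direction are named. The alternatives tried were no filter, a filter at the 60th percentile, quantile normalization, 32 added before log2, the mean over probe sets, a trend and robust variance model, other covariates or arrays in the fit, and leaving out each array. Leaving out both microgravity arrays was added after the values were seen. Some genes of these systems were not analysed here.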

Additional observations from a re-analysis of the deposited data

Results flagged for a closer look

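Among the 38 genes, 76 groups of 4 arrays were checked for an array far from the other 3, and 3 groups had a gap, as a share of the group's range, above Dixon's 95% value of 0.829. By chance about 1 in 20 groups would be picked. All 3 were flight groups, and the array was that of growth microgravity each time. For Ctsf the gap was 0.866 of the range, with 7.83 on that array and 7.51 on the nearest. For Ctsz it was 0.863, with 11.31 against 11.74 on the nearest, and for Asah1 it was 0.865, with 10.72 against 11.04 on the nearest.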

How the results depend on the processing

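The number of the 38 genes called between flight and ground-based arrays was 13, and it was 7 with quantile normalization, 6 with no term for medium, 3 without both microgravity arrays, and 5 to 18 when each array was left out. Between microgravity and ground it was 11, and it was 5 with quantile normalization and 1 to 15 when each array was left out. On the centrifuge against ground it was 1, and it was 0 with the stricter filter, which removed Ctsk, Ctsf and Tfeb, and 1 to 3 when each array was left out. Between microgravity and centrifuge it was 0, and 0 to 1 when each array was left out. Between media it was 12, 8 without both microgravity arrays, 10 to 13 under the other settings and 8 to 11 over the 4 distinct fits that leave out an array. Without the pairing of media within settings it was 10, and Gla and Lamp1 no longer passed. The interaction and ground against laboratory gave 0 calls among the 38 under every alternative run. The cause of these changes was not tested, apart from the stricter filter. The flight difference of Ctsh changed sign, to -0.172 without the osteoinductive microgravity array and to -0.0655 without both microgravity arrays, and it lay between -0.172 and 0.246 when each array was left out. With quantile normalization the median of the 38 genes on the centrifuge against ground was 0.04, against -0.01 as deposited. Over 693 repeats of single-gene results under these alternatives, 551 kept their direction and their side of the threshold, 138 no longer passed, 2 came to pass and 2 changed sign. These repeats are not all separate checks, since leaving out either array of a setting gave the same fit between media. With 1 array for each medium and setting, the number of arrays limits the precision.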

Other observations

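Lamp1 and Lamp2 are the genes most used as markers of the organelle. Between media, in the fit over all arrays, Lamp1 rose by 0.38, while Lamp2 differed by 0.27 and did not pass. Between flight and ground-based arrays neither passed, with differences of -0.26 for Lamp1 and -0.02 for Lamp2. The cathepsins covered the widest range of the 6 roles in flight, with differences between -0.30 for Ctsd and 0.77 for Ctsk.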
